A study of Mus musculus with 12 samples.

Results

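The 6 genes described here form the costimulation module of the CD28 family: the receptors Cd28, Ctla4 and Icos, and the ligands Cd80, Cd86 and Icosl. They were taken by symbol from the 26938 genes with a count in the series, of 27457 symbols listed, and all 6 had counts. Their unique molecular identifiers (UMIs, each of which stands for 1 captured transcript) were summed by cell cluster and by tumor. CPM below is the number of UMIs of a gene per 1000000 UMIs of the cells summed. The counts come from tags near the 5′ end of a transcript and carry no correction for gene length, so a level is compared between clusters or tumors and never between genes.

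CD28 and CTLA-4 share their ligands, CD80 and CD86, which are displayed by antigen-presenting cells. Ligation of CD28 beside the T cell receptor promotes proliferation, survival and IL-2 production, whereas CTLA-4 binds the same ligands more tightly and restrains T cells, in part by removing the ligands from the presenting cell. ICOS, induced on activated and regulatory T cells, binds a ligand of its own, ICOSL. PD-1, the target of the antibody given here, belongs to the same receptor family, and CD28 is among the molecules that PD-1 signalling is known to dephosphorylate.

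Tumors of MC38, a colon carcinoma line from a C57BL/6 mouse, were grown under the skin of female F1 hosts of C57BL/6J and a Collaborative Cross strain, or of C57BL/6J hosts. Each host was 8 to 12 weeks old at injection and received 200 µg of isotype control antibody or of antibody against PD-1 (aPD1) once the tumor measured 75 to 110 mm3. Tumors were taken 48 h later and sorted to about 90% CD45+ and 10% CD45- cells, so cell shares describe the sorted suspension and not the tumor. Each of 12 pooled libraries held 4 tumors told apart by hashtag antibodies, and 48 tumors gave 93126 cells.

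Responder strains were the F1 crosses of C57BL/6J with CC001/UncJ, with CC002/UncJ and with CC075/UncJ, which gave 10 isotype tumors (15734 cells) and 10 aPD1 tumors (22598 cells). Non-responder strains were those with CC036/UncJ, with CC079/TauUncJ and with CC080/TauUncJ, which gave 9 isotype tumors (19780 cells) and 9 aPD1 tumors (17756 cells). Strains are called below by the first part of these names, and C57BL/6J by B6. The class of a strain is the study's, from tumor growth in other animals, and a class of 3 strains stands for those strains only. C57BL/6J and C57BL/6J x CC007/UncJ hosts gave 10 further tumors that belong to no class and enter only the descriptions by cluster and strain.

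UMIs per tumor ranged from 808362 to 17713491 in classed strains, with a median of 3333.5 UMIs per cell over the series. Hashtags went with the groups: hashtag 301 marked 9 of 10 responder isotype tumors and 303 marked 8 of 9 non-responder isotype tumors, while 302 and 304 marked 9 of 10 and 8 of 9 aPD1 tumors of the 2 classes. No hashtag marked both an isotype and an aPD1 tumor. Hashtag and treatment therefore cannot be told apart, and hashtag and class hardly so. Of all cells, 10176 carried a barcode that also occurred in another library. No source used here states that doublets were removed, and no doublet caller was run.

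The 3 receptor genes lie side by side on mouse chromosome 1 (GRCm38, GENCODE vM21, plus strand). Cd28 spans chr1:60716800-60773359, Ctla4 spans chr1:60887000-60915832 after a gap of 113.6 kb, and Icos spans chr1:60977927-61000320 after a further 62.09 kb. The B7 ligands Cd86 (chr16:36603869-36666081, minus strand) and Cd80 (chr16:38455561-38496335, plus strand) lie 1789 kb apart on chromosome 16, and Icosl (chr10:78069302-78083913, plus strand) stands alone on chromosome 10.

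The loop that touches the ligand is printed for the 3 receptors as coding bases, since CD28 and CTLA-4 share their ligands and ICOS does not. All 3 stretches lie in exon 2 and are read 5′ to 3′ on the plus strand of the GRCm38 reference. Capitals mark the longest run of residues that Cd28 and Ctla4 have in common, and in Icos the stretch at the same offset around its run of 3 prolines.
Cd28 (chr1:60763269-60763298): gagttcATGTACCCTCCGCCTTACctagac
Ctla4 (chr1:60912707-60912736): gaactcATGTACCCACCGCCATACtttgtg
Icos (chr1:60993977-60994006): tccattTTTGACCCACCTCCTTTTcaagaa
Of the 18 bases in capitals, Ctla4 shared 16 with Cd28 and all 6 encoded residues were the same. Icos shared 11 of the 18 bases and 3 of the 6 residues, the prolines, and its protein binds neither CD80 nor CD86 in the mouse.

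Receptors and ligands were counted mostly in different clusters. T/NK clusters held 95.26% of all Cd28 UMIs, 90.47% of Ctla4 and 96.1% of Icos. Macrophage clusters held 71.35% of Cd80, 82.86% of Cd86 and 71.68% of Icosl, and the 4 dendritic clusters held a further 22.48%, 14.33% and 24.46%. In single tumors the T/NK part of Cd28 ran from 70.83% to 100%, with a median of 95.55%. The counts behind the levels were 7294 UMIs for Cd28, 14019 for Ctla4, 13529 for Icos, 21137 for Cd80, 110387 for Cd86 and 7393 for Icosl.

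**Figure D1:**
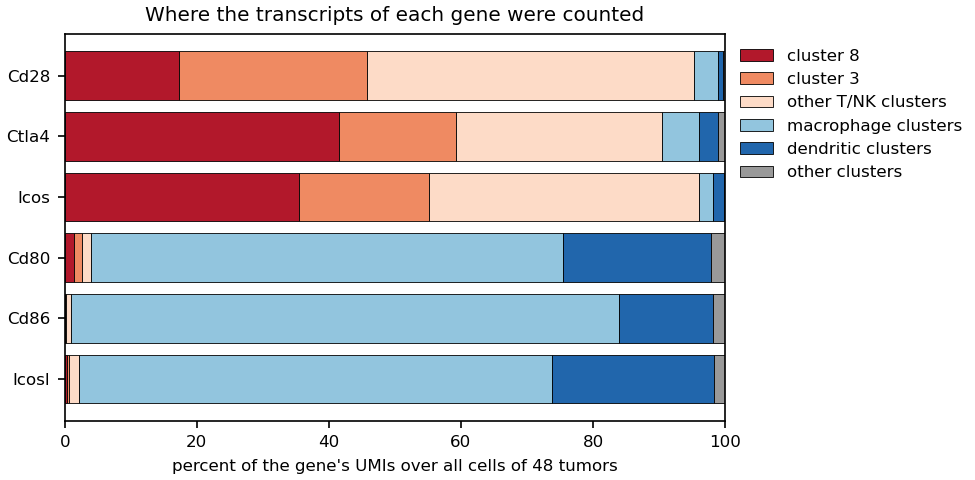
Share of the UMIs of each gene (x axis, percent, all cells of 48 tumors) that was counted in cluster 8, cluster 3, the other T/NK clusters, macrophage clusters, dendritic clusters and all others (stacked colours). T/NK clusters hold 95.26% of Cd28, 90.47% of Ctla4 and 96.1% of Icos, and macrophages hold 71.35% of Cd80, 82.86% of Cd86 and 71.68% of Icosl.

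Clusters carry the authors' numbers and were named here from marker genes, none of which is among the 6 genes. Cluster 8 (2206 cells) had 6 of 6 regulatory T cell markers at 100 CPM or more and is called regulatory T-like. It also carried CD8 transcripts, with Cd8a at 121.2 CPM and Cd8b1 at 120.2 beside Cd4 at 118.8, and Nkg7 at 781.3. Cluster 3 (2809 cells) had 3 of 4 CD8 T cell markers, cluster 10 (625 cells) had 4 of 4 CD4 helper markers and cluster 24 (1614 cells) had 6 of 6 NK cell markers at that level, and they are called CD8 T-like, CD4 helper-like and NK-like. Cluster 12 (535 cells), counted here with T/NK cells, was mixed and led by Hbb-bs and Hba-a1. It had Lyz2 at 2866 CPM, Apoe at 1813 and C1qa at 803.7 beside Cd3e at 378.1. Among presenting cells, cluster 11 (1524 cells) had 6 of 6 migratory dendritic cell markers, cluster 14 (4981 cells) 5 of 6 cDC2 markers and cluster 6 (1312 cells) 5 of 5 cDC1 markers. The clusters were made from the same counts, so levels by cluster are a description with no test, and a step between neighbouring clusters is called clear only where its mean over tumors with at least 10 cells in both exceeded its SD.

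Cd28, the receptor of resting and activated T cells alike, had like levels in the T cell clusters that held most of it. It read 305.8 CPM in cluster 7, a T cell cluster with Lef1 among its leading genes, where tumors ran from 118.5 to 743.3 with a median of 284.1. Cluster 10 followed at 282.8 CPM, cluster 3 at 221.7, cluster 13 at 214.7 and cluster 8 at 213.1, and no step among these was clear. Below them came cluster 1 at 184.4 CPM, cluster 23 at 142.7 and cluster 12 at 95.79, and the steps from 1 to 23 and from 23 to 12 were clear but rested on 3 tumors each. NK-like cluster 24 read 82.76 CPM, a clear step of 1.64 ± 1.48 (SD) on the log2 scale above plasmacytoid dendritic-like cluster 18 in 16 tumors. Cluster 8 did not stand above the other T cell clusters for Cd28: tumors ran from 72.46 to 418.5 CPM in cluster 8, and the cluster had 17.26% of all Cd28 UMIs.

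Ctla4, the inhibitory receptor that regulatory T cells express constitutively, stood highest in cluster 8. Its level there was 986.3 CPM, from 173.8 to 2572 between tumors with a median of 992.6, and cluster 8 held 41.56% of all Ctla4 UMIs. CD4 helper-like cluster 10 came next at 586.1 CPM, then cluster 13 (led by Ifng and Il2) at 375.2, cluster 1 at 355.2, cluster 3 at 263.9 and cluster 7 at 208.5. The step from cluster 8 to cluster 10 was 0.64 ± 1.12 (SD) on the log2 scale and in that direction in 16 of 21 tumors, which is within the spread between tumors. NK-like cluster 24 read 42.11 CPM.

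Icos, which marks activated and regulatory T cells, was also highest in cluster 8. It read 814.0 CPM there, from 206.7 to 2430 between tumors with a median of 769.8, and 35.54% of all Icos UMIs fell in that cluster. Cluster 23, a small cluster led by Il23r and Il1rl1, read 654.5 CPM, cluster 10 read 575.6 and cluster 13 read 554.1, none a clear step apart. NK-like cluster 24 stood at 38.44 CPM, lower than cluster 12, next above it in the order, by 2.53 ± 0.95 (SD) on the log2 scale in 18 of 18 tumors, the only clear step among the 11 pairs of neighbours that could be compared for Icos.

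Depth differs between clusters, and cells of cluster 8 were shallow, with a median of 1376 UMIs. Thinned to 1000 UMIs per cell, 57.87% of 1557 cluster 8 cells had a Ctla4 UMI, 57.61% had an Icos UMI and 23.38% had a Cd28 UMI, against 69.76%, 71.58% and 36.45% of whole cells. In macrophage cluster 2, which should lack all 3 receptors, thinned cells had a Cd28 UMI in 0.0488%, a Ctla4 UMI in 0.265% and an Icos UMI in 0.0867% at a median depth of 3881 UMIs. The shares in cluster 8 lay far above that background.

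With the cells of all tumors pooled, Ctla4 and Icos tended to be seen in the same cells of cluster 8. After thinning, Icos was detected in 63.6% of cells with a Ctla4 UMI and in 49.39% of those without, while Cd28 was detected in 22.64% and 24.39%. In CD8 T-like cluster 3 Icos was seen in 35.99% of Ctla4-positive and 20.97% of Ctla4-negative cells, and in cluster 10 in 46.51% and 34.43%. Cells of a cluster are not replicates, and these shares carry no test. Levels of both genes also varied between tumors, so the pooled shares do not show an association within a tumor.

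A few receptor transcripts lay outside T and NK cells. Cd28 had 133 UMIs in macrophage cluster 27 (7.159 CPM, led by Gpnmb, Hmox1 and Mmp12), above 0 in all but 9 of 45 tumors, with a median of 6.093 CPM and a maximum of 22.89. The same cluster had 9 Icos UMIs, 47 Ctla4 UMIs and Cd3e, a chain of the T cell receptor complex, at 0.538 CPM. After thinning, 0.756% of its cells had a Cd28 UMI against 0.0488% in cluster 2 and 0.0419% in cluster 26, at median depths of 3763, 3881 and 4383 UMIs. Ctla4 had 246 UMIs in cDC1-like cluster 6 (25.18 CPM, tumor median 14.52), where Cd3e read 3.173 CPM and 0 of 5 T cell markers reached 10 CPM. That level was a clear step of 1.01 ± 0.86 (SD) on the log2 scale above cluster 18, in 15 of 18 tumors.

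**Figure D2:**
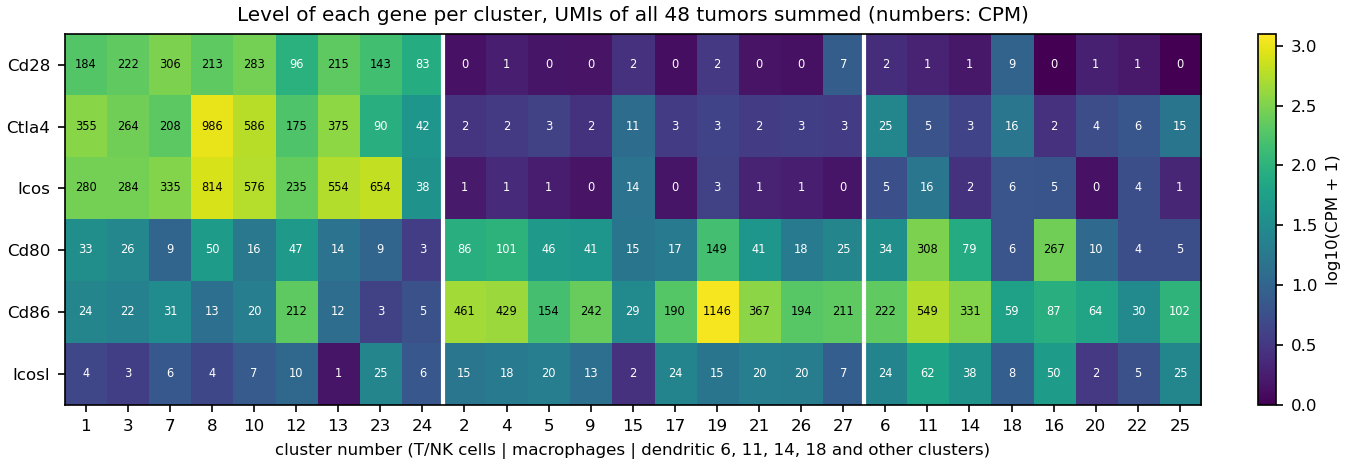
Level of each of the 6 genes (rows) in each of 27 clusters (columns, in the order T/NK, macrophage, dendritic and other), as CPM of UMIs summed over 48 tumors (printed numbers, colour on a log10 scale of CPM + 1). Ctla4 and Icos are highest in cluster 8 (986.3 and 814.0 CPM), Cd80 and Icosl in cluster 11 (307.7 and 61.51 CPM) and Cd86 in cluster 19 (1146 CPM).

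Cd80, the ligand induced on activated presenting cells, was highest in migratory dendritic-like cluster 11. It read 307.7 CPM there, from 135.1 to 605.9 between tumors with a median of 291.1. Granulocytic-like cluster 16 read 266.7 CPM but on 150 UMIs and cells of a median of 815 UMIs, and the step between them was 0.06 ± 0.98 (SD) on the log2 scale. Macrophage cluster 19 read 149.0 CPM, cluster 4 read 100.6, cluster 2 read 86.5 and cDC2-like cluster 14 read 79.33. Cluster 2, the largest with 18964 cells, held 36.04% of all Cd80 UMIs, and cluster 11 held 9.656%. Regulatory T-like cluster 8 had a Cd80 level of 50.11 CPM, higher than the 26.17 CPM of cluster 3 and the 9.255 CPM of cluster 7. Its Cd86 level of 12.7 CPM was lower than their 22.32 and 30.98 CPM.

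Cd86, the more widely expressed B7 ligand, had its highest level in macrophage cluster 19. It read 1146 CPM, from 228.7 to 3668 between tumors with a median of 1050, a clear step of 1.03 ± 0.78 (SD) on the log2 scale above cluster 11 in 41 of 44 tumors. Cluster 19 had 8 of 8 macrophage markers at 100 CPM but none among its 10 leading genes, which were long genes and non-coding RNAs such as Mir99ahg and Lrmda. Its cells had a median of 1225 UMIs and 4.416% mitochondrial UMIs, and whether that composition plays a part in the Cd86 level was not tested. Cluster 11 read 548.6 CPM, cluster 2 read 460.9, cluster 4 read 429.3, interferon-response cluster 21 (led by Ifit3 and Rsad2) read 366.9 and cluster 14 read 331.3. Cluster 2 alone held 36.77% of all Cd86 UMIs.

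Icosl, the ligand of ICOS, was spread over dendritic and macrophage clusters. Cluster 11 led with 61.51 CPM, from 17.73 to 160.9 between tumors with a median of 59.21, followed by cluster 16 at 49.79 on 28 UMIs and cluster 14 at 38.5. Macrophage clusters lay between 7.48 CPM in cluster 27 and 24.1 in cluster 17, leaving aside cluster 15 at 1.79 CPM. Cluster 26, a macrophage cluster led by Cxcl13 and Fcrls, held 23.68% of all Icosl UMIs at 19.67 CPM. After thinning, 6.82% of cluster 11 cells had an Icosl UMI.

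The genes most like each receptor over the 27 clusters were T cell signalling genes. By the Pearson correlation of log2(CPM + 1), among 7369 genes that reached 50 CPM in some cluster, Cd28 was closest to Sh2d1a (0.9682), Lat (0.9631) and Cd247 (0.9622). Ctla4 was closest to Cd5 (0.9584), Lat (0.9567) and Trac (0.9546), and Icos to Lat (0.9807), Camk4 (0.9763) and Ubash3a (0.9729). Among themselves the receptors correlated less closely, from 0.9347 for Cd28 and Ctla4 to 0.9459 for Ctla4 and Icos. The ligands had looser patterns: Cd86 was closest to Tbc1d9 (0.9188), Cd40 (0.9153) and Sowahc (0.9073), Cd80 to Nfkbie (0.7955), Nfil3 (0.7873) and E230029C05Rik (0.7706), and Icosl to Mmp25 (0.8345), Hsd17b11 (0.8137) and Rassf2 (0.7911). Cd80 and Cd86 correlated at 0.6388. Clusters share tumors, libraries and a split into T/NK and myeloid cells, which alone gives high values, so these are descriptions.

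The first comparison asked whether responder and non-responder strains differed in these genes in whole sorted tumors, with all cells of a tumor summed. In such sums fewer cells of a type and less RNA per cell cannot be told apart. Among aPD1 tumors Icos was higher in responder strains, the only 1 of the 6 genes to pass, and among isotype tumors 0 of 6 passed. edgeR called 2.34% of all 13503 genes between classes in aPD1 tumors and 0.222% in isotype tumors, at an adjusted p under 0.05.

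Icos read 12.74 to 136.5 CPM in the 10 responder aPD1 tumors, with a median of 48.6. The 9 non-responder aPD1 tumors read 7.199 to 28.72 CPM, with a median of 16.29. The groups overlapped, with 7 of 10 responder tumors above the highest non-responder one. By strain, the 3 CC036 tumors read 10.11, 18.88 and 28.72 CPM, the 3 of CC079 read 7.199, 10.07 and 19.63, and the 3 of CC080 read 8.436, 16.29 and 25.62. The 4 CC001 tumors read 12.74, 21, 42.6 and 49.72 CPM, the 3 of CC002 read 23.99, 53.44 and 75.67, and the 3 of CC075 read 47.49, 56.33 and 136.5. Every strain thus held at least 1 tumor within the range of the other class except CC075.

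The log2 difference was 1.73 ± 0.48 (SE) with an adjusted p of 0.0439 in edgeR's quasi-likelihood test. The call did not hold with counts summed per strain (1.76, adjusted p = 0.346, 3 strains in each class), without any 1 of 5 of the 6 strains (1.37 to 1.88, adjusted p from 0.0514 to 0.219, the exception being CC001), scaled by total UMIs alone (adjusted p = 0.0505) or with no filter on low counts (adjusted p = 0.0602). It was 1.67 in pools 1 to 5 (adjusted p = 0.23) and 1.77 in pools 8 to 12 (adjusted p = 0.465), so neither set of pools, a split by pool number made here, passed alone. Leaving out each of 38 tumors in turn kept it between 1.47 and 1.87, but the adjusted p rose to 0.05 or above without any of 14 of the 19 aPD1 tumors, at most to 0.0989 without the CC075 tumor of pool 9. In isotype tumors Icos ran from 10.42 to 121.2 CPM in responder strains (median 28.82) and from 10.21 to 128.4 in non-responder strains (median 26.17), a log2 difference of 0.24 ± 0.47 (SE, adjusted p = 1).

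The share of T/NK cells moved with Icos. In aPD1 tumors T/NK cells made up 6.574% to 35.64% of cells in responder strains (median 13.38%) and 1.721% to 11.73% in non-responder strains (median 5.489%). Within T/NK cells alone Icos ran from 218.3 to 621.1 CPM in responder aPD1 tumors (median 457.1) and from 179.5 to 965.5 in non-responder ones (median 316.3), a log2 difference of 0.04 ± 0.27 (SE, adjusted p = 1). The class difference in Icos was thus large over all cells and near 0 per UMI of all T/NK cells summed, where the ranges were wide. Single clusters in that sum had log2 differences of either sign. The difference in aPD1 tumors was -0.13 ± 0.33 (SE) in cluster 8 and 1.18 ± 0.55 (SE) in cluster 3, and neither passed. With cluster 8 left out of the sum it was larger, as given below, and did not pass. The value near 0 therefore does not show that Icos was level between classes in each T cell cluster.

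**Figure D3:**
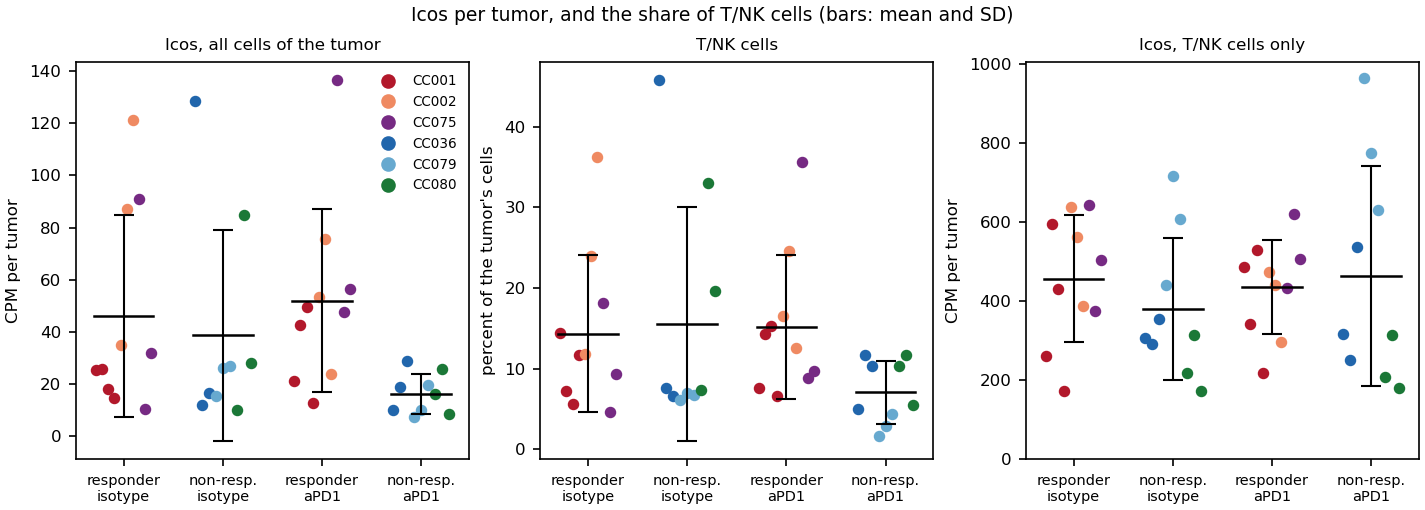
Icos in all cells of each tumor (left, CPM), T/NK cells as a percent of the tumor's cells (middle) and Icos in T/NK cells only (right, CPM), for the 38 tumors of classed strains, coloured by strain, with mean and SD bars per group. Responder aPD1 tumors reach 136.5 CPM on the left against at most 28.72 in non-responder aPD1 tumors, while on the right the highest values, up to 965.5 CPM, belong to CC079.

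The other receptors leaned the same way over all cells without passing. Cd28 ran from 6.58 to 77.15 CPM in responder aPD1 tumors (median 21.85) and from 2.16 to 19.22 in non-responder ones (median 9.864), with 6 of 10 responder tumors above the highest non-responder one. Its log2 difference was 1.40 ± 0.60 (SE, adjusted p = 0.225). Ctla4 ran from 11.8 to 131.3 CPM (median 35.25) and from 9.089 to 42.52 (median 18.25), with a log2 difference of 0.99 ± 0.50 (SE, adjusted p = 0.316). In isotype tumors the medians of responder and non-responder strains were 12.24 and 9.655 CPM for Cd28 and 27.95 and 22.68 CPM for Ctla4, while the fitted log2 differences were -0.60 ± 0.60 and -0.62 ± 0.50 (SE). Medians and fitted differences thus had opposite signs. The highest isotype tumor for both genes was the CC036 tumor of pool 8, with 159.5 CPM of Cd28 and 211 CPM of Ctla4, and its part in this was not tested.

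None of the ligands passed between classes over all cells, though Icosl did under some alternatives. Icosl ran from 11.28 to 19.74 CPM in responder aPD1 tumors (median 13.81) and from 14.83 to 35.82 in non-responder ones (median 18.88), and 6 of 10 responder tumors lay below every non-responder tumor. Its log2 difference was -0.45 ± 0.15 (SE) with an adjusted p of 0.104 in edgeR's test, which did not pass. With pool as a block it was -0.47 (adjusted p = 0.0489) and without CC036 -0.60 (adjusted p = 0.0359), and both passed. Cd86 had medians of 274.2 and 213.9 CPM (log2 difference 0.27 ± 0.24 SE, adjusted p = 0.651) and Cd80 medians of 46.6 and 56.36 CPM (log2 difference -0.16 ± 0.30 SE, adjusted p = 0.873).

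The next comparison asked what a single dose of aPD1 changed over all cells. None of the 6 genes passed in responder strains or in non-responder strains, where 0% and 0% of genes passed, nor did the difference between classes in the effect of aPD1 pass for any of the 6, where again 0% of genes did. At an unadjusted p under 0.05, edgeR's test listed 0 of the 6 genes in responder strains and 4 in non-responder strains, with 590 and 512 genes in all. The difference between classes in the effect of aPD1, which did not pass, was on the log2 scale 2.00 for Cd28, 1.61 for Ctla4, 1.49 for Icos and -0.58 for Icosl. Within T/NK cells that difference was -0.01 for Cd28, -0.33 for Ctla4 and -0.27 for Icos. In non-responder strains Cd28 had a log2 change of -1.60, Ctla4 -1.24, Icos -1.21 and Icosl 0.33. The T/NK share of these tumors ran from 6.092% to 45.74% with isotype and from 1.721% to 11.73% with aPD1, and within T/NK cells the same changes were -0.01 for Cd28, 0.23 for Ctla4 and 0.20 for Icos. The CC036 isotype tumor of pool 8 stood far apart, with 159.5 CPM of Cd28 against at most 57.69 in the others, and without CC036 the changes over all cells were -1.43, -1.02 and -1.14. Paired within strain and pool, Icos was higher with aPD1 in 6 of 10 responder pairs and in 3 of 9 non-responder pairs, and so were Cd28 and Ctla4. Of the ligands, Cd86 was higher in 8 of 10 responder and 7 of 9 non-responder pairs. Cd80 was higher in 5 of 10 and 8 of 9, and Icosl in 3 of 10 and 6 of 9.

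A second set of comparisons held the cell type fixed. In T/NK cells 0 of 3 receptors passed between classes in isotype tumors, where 0.429% of 7219 genes did, or in aPD1 tumors, where 0.346% did. None passed for the effect of aPD1 in responder strains (0% of genes) or in non-responder strains (0.0139%), or for the difference of these effects (0%), and DESeq2 called 0 of 3 in each comparison. Of the 3 receptors, edgeR's test listed only Ctla4, in aPD1 tumors, at an unadjusted p under 0.05. Cd80 and Cd86 also passed the filter on low counts in T/NK cells and were not called. Cd80 was listed at an unadjusted p under 0.05 in isotype tumors, with a log2 difference of 0.79 ± 0.26 (SE, adjusted p = 0.236). Ctla4 in aPD1 tumors had the lowest adjusted p of the 3. It ran from 170.4 to 495.7 CPM in responder strains (median 334.8) and from 204.5 to 1045 in non-responder strains (median 512.7), and 5 of 9 non-responder tumors lay above every responder tumor. The log2 difference was -0.66 ± 0.29 (SE) with an adjusted p of 0.387 in edgeR's test.

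The share of regulatory T-like cells moved beside that value. Cluster 8 made up 2.439% to 34.98% of T/NK cells in responder aPD1 tumors (median 17.71%) and 11.06% to 60.82% in non-responder ones (median 33.62%). The difference was -18.9 percentage points (16.8% ± 8.93 against 35.7% ± 16.9, SD, n = 10 and 9), with an exact permutation p of 0.00687 and an adjusted p of 0.124 over 35 comparisons, which did not pass. In each of the 8 pools that held an aPD1 tumor of both classes the responder tumor had the lower share, a mean difference of -20.8 ± 14.2 percentage points (SD). Paired in this way, a comparison chosen after the values were seen, the exact permutation p was 0.00781, the smallest that 8 pairs can give, and the adjusted p 0.109 over 14 comparisons. Among isotype tumors the responder tumor was lower in 7 of 8 pools. With cluster 8 left out of the T/NK sum, the log2 difference in Ctla4 was -0.23 ± 0.30 (SE), that in Cd28 was 0.02, and that in Icos rose from 0.04 to 0.69 ± 0.28 (SE, adjusted p = 0.335 in edgeR's test). This sum was chosen after the values were seen.

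Cd28 in T/NK cells differed little between groups in median. Its medians were 175.1 CPM in responder isotype, 199.1 in responder aPD1, 212 in non-responder isotype and 208.1 in non-responder aPD1 tumors. Paired within strain and pool, however, it was higher with aPD1 in only 3 of 10 responder pairs and 1 of 9 non-responder pairs. The ranges overlapped in part, from 103.4 to 245.1 CPM in responder aPD1 and from 122.9 to 345 in non-responder aPD1 tumors. Of the latter, 2 of 9 lay above every responder aPD1 tumor. The log2 difference between classes was -0.07 in isotype and -0.08 ± 0.21 (SE) in aPD1 tumors.

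Within regulatory T-like cluster 8 itself, 0 of 3 receptors passed in isotype or in aPD1 tumors, where 0.0664% and 0.0664% of 3012 genes did, or for either effect of aPD1 or their difference (0%, 0% and 0% of genes). Ctla4 ran from 401 to 1619 CPM in 9 responder aPD1 tumors (median 753.2) and from 631.2 to 2018 in 9 non-responder ones (median 1109), a log2 difference of -0.52 ± 0.28 (SE, adjusted p = 0.416 in edgeR's test). Icos had medians of 696.2 and 858.3 CPM and a log2 difference of -0.13 ± 0.33 (SE), and Cd28 had medians of 175.8 and 230.3 CPM and a log2 difference of -0.30 ± 0.21 (SE). In isotype tumors the Ctla4 medians were 1046 CPM over 8 responder and 1065 CPM over 9 non-responder tumors.

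In CD8 T-like cluster 3, 0 of 3 receptors passed in isotype tumors, where 0.0496% of 4031 genes did, in aPD1 tumors (0.198%), for the effect of aPD1 in responder strains (0%) or in non-responder strains (0.0248%), or for their difference (0.0496%). Icos ran from 76.25 to 553.9 CPM in 10 responder aPD1 tumors (median 260.5) and from 0 to 290.2 in the 5 non-responder aPD1 tumors with at least 10 such cells (median 107.5). Those 5 were 3 CC036 and 2 CC080 tumors, and no CC079 tumor given aPD1 had more than 3 such cells. The log2 difference was 1.18 ± 0.55 (SE) with an adjusted p of 0.488 in edgeR's test. The cluster was scarce in that group, from 0% to 1.78% of all cells, against 1.081% to 12.4% in responder aPD1 tumors. Cd28 in cluster 3 had medians of 192.9 and 247.4 CPM, and Ctla4 226.6 and 122.5.

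Ctla4 in T/NK cells varied widely between strains of 1 class. The 6 CC079 tumors ran from 422.9 to 1045 CPM with a median of 856.1, and the 3 of them given aPD1 rested on 194 T/NK cells in all. The medians of the other strains lay between 214.3 in B6 and 440 in CC002, and the non-responder strains CC036 and CC080 had 337.1 and 427.1. Cluster 8 made up a median of 49.87% of T/NK cells in CC079, against 7.744% in CC075 and 7.909% in B6. CC079 tumors shared pools 1 and 2 with CC001 and pool 5 with CC002. In all 6 pairs of 1 pool and treatment the CC079 tumor had the larger cluster 8 share, 28.3% to 60.82% against 11.66% to 34.98%, and the higher Ctla4 level in T/NK cells, 422.9 to 1045 CPM against 291.1 to 542.1. CC075 tumors came from pools 9 to 11 and B6 tumors from pools 6 to 8, so CC079 was not compared with these strains within a pool. The 3 strains found in pools 1 to 5 and again in pools 11 or 12 gave 6 sets of strain and treatment. Tumors of pools 11 or 12 are called late and those of pools 1 to 5 early by pool number alone, and no date was used. In 5 of the sets the late tumor had a smaller cluster 8 share than every early one. The late and lowest early shares were 10.67% and 21.47% in CC001 isotype, 2.222% and 18.61% in CC002 isotype, 18.98% and 20.03% in CC002 aPD1, 11.14% and 15.23% in CC080 isotype, and 20.75% and 33.62% in CC080 aPD1 tumors. The exception was CC001 aPD1, with 16.44% late and 11.66% to 34.98% early. In all 6 sets the late tumor also had less Ctla4 in T/NK cells than every early one. The late and lowest early levels were 131.7 and 345.7 CPM in CC001 isotype and 170.4 and 291.1 in CC001 aPD1 tumors. They were 272.9 and 542.1 CPM in CC002 isotype and 303.2 and 384.3 in CC002 aPD1 tumors. In CC080 they were 133 and 456.1 CPM with isotype and 273.2 and 398.1 with aPD1. Within cluster 8 the late tumor was lower too, leaving aside CC002 isotype, whose late tumor had 2 such cells. Within cluster 8, Ctla4 ran from 1065 to 2018 CPM in CC079 (median 1410). In pool 5 CC079 was below CC002, with 1201 against 1206 CPM with isotype and 1157 against 1619 with aPD1. In pool 1 it was below CC001 with isotype (1065 against 1171) and above it with aPD1 (1620 against 1019). In pool 2 it was above CC001 with isotype (1750 against 1280) and with aPD1 (2018 against 584.8). The 4 CC075 tumors with at least 10 such cells ran from 173.8 to 753.2 CPM (median 475.5). The other 2 CC075 tumors, with 8 and 4 cells of cluster 8, had 42 of 32894 and 11 of 6241 UMIs from Ctla4, a larger share than in any of those 4, so the strains are not shown to be apart.

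Icos split the non-responder strains in a similar way. In T/NK cells CC079 tumors ran from 439.9 to 965.5 CPM (median 674.5) and CC080 tumors from 173 to 314 (median 212.6), without overlap, while responder strain CC075 ran from 374.8 to 642.7 (median 506.4). In cluster 8 CC079 ran from 822.1 to 2430 CPM (median 1092) and CC080 from 349.2 to 751.8 (median 522). These strains were singled out after their values were seen, and no test was run between strains. CC079 and CC080 tumors shared no pool.

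**Figure D4:**
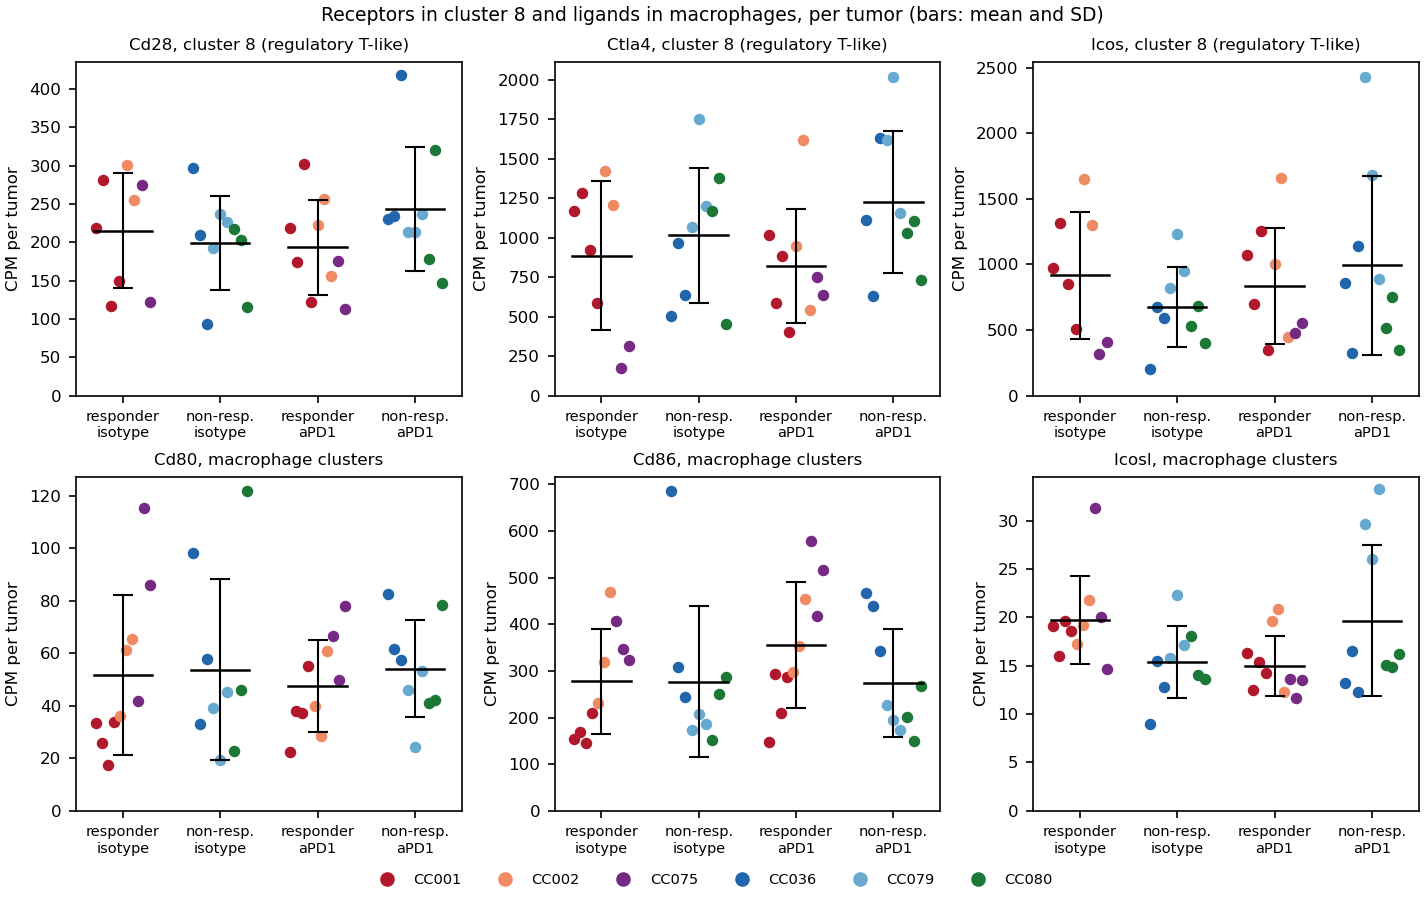
Cd28, Ctla4 and Icos in regulatory T-like cluster 8 (top, CPM per tumor) and Cd80, Cd86 and Icosl in macrophage clusters (bottom, CPM per tumor), for tumors of classed strains with at least 10 such cells, coloured by strain, with mean and SD bars per group. All groups overlap between classes. CC079 tumors run from 1065 to 2018 CPM for Ctla4, and CC075 tumors from 323.1 to 577.9 CPM for Cd86.

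In macrophages, the main source of ligand transcripts, 0 of 3 ligands passed between classes in aPD1 tumors, where 6.44% of 11873 genes did, or in isotype tumors, where 0.278% did. None passed for the effect of aPD1 in responder strains (0%), in non-responder strains (0%) or for the difference of these effects (0%). At an unadjusted p under 0.05 edgeR's test listed Icosl for that difference of effects, and DESeq2 called 0 of the 3 in each comparison. Ctla4 also passed the filter on low counts in macrophages and was not called.

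Cd86 in macrophages ran from 146.7 to 577.9 CPM in responder aPD1 tumors (median 325.2) and from 149.8 to 466.8 in non-responder ones (median 227.2). The log2 difference was 0.46 ± 0.27 (SE, adjusted p = 0.341 in edgeR's test). With pool as a block it was 0.53 ± 0.17 (SE, adjusted p = 0.0406), which passed, and without CC036 it was 0.88 (adjusted p = 0.0353). Cd86 was higher with aPD1 in 8 of 10 responder pairs and 4 of 9 non-responder pairs. Strains of 1 class did not always overlap: all CC075 tumors (323.1 to 577.9 CPM) lay above all CC001 tumors (145.3 to 293.9), though both are responder strains. Among non-responder strains CC036 ran from 244.9 to 686.5 CPM and CC079 from 173.6 to 227.2, without overlap. Neither CC075 and CC001 nor CC036 and CC079 shared a pool, so these strains were not compared within a pool. Pools 11 or 12 also read higher than pools 1 to 5 within a strain. Tumors of pools 11 or 12 and the highest of pools 1 to 5 had 210.3 and 169.2 CPM in CC001 isotype. The values were 470 and 318.4 CPM in CC002 isotype and 453.3 and 353.4 in CC002 aPD1 tumors. In CC080 they were 286.5 and 250.2 CPM with isotype and 267.1 and 200.3 with aPD1. The exception was CC001 aPD1, with 287 CPM in pool 12 and 146.7 to 293.9 in pools 1 to 5.

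Icosl in macrophages had medians of 19.18 CPM in responder isotype, 13.96 in responder aPD1, 15.47 in non-responder isotype and 16.18 in non-responder aPD1 tumors. It was higher with aPD1 in 2 of 10 responder pairs and 7 of 9 non-responder pairs. The difference between classes in the effect of aPD1 was -0.65 ± 0.23 (SE) on the log2 scale with an adjusted p of 0.868 in edgeR's test, so it did not pass. Cd80 in macrophages had a log2 difference of -0.10 ± 0.32 (SE) in aPD1 tumors, with medians of 44.85 and 53.21 CPM.

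Because Cd80 and Cd86 compete for the same receptors, their ratio was compared within each tumor. In macrophages of aPD1 tumors the log2 ratio of Cd80 to Cd86 was -2.88 ± 0.35 (SD) over the 10 tumors of responder strains and -2.31 ± 0.47 over the 9 of non-responder strains, a difference of -0.57. The exact permutation p was 0.0071 and the adjusted p 0.124 over 35 comparisons, so it did not pass. Paired within pool it was lower in responder strains in 7 of 8 pools, a mean difference of -0.66 (adjusted p = 0.109 by exact permutation over 14 comparisons). Not paired, no ratio of receptors (Ctla4 or Icos to Cd28) had an adjusted p under 0.5. Paired within pool, Ctla4/Cd28 in T/NK cells of aPD1 tumors was lower in responder strains in 7 of 8 pools (mean -0.60, adjusted p = 0.246 by exact permutation). In cluster 8 of isotype tumors it was lower in 6 of 7 pools (mean -0.63, adjusted p = 0.219 by exact permutation). No paired receptor ratio passed. Some of the unpaired calls changed when 1 strain was left out. Each strain came from few pools, so strain and pool cannot be told apart in these changes. Without CC036 the differences in Cd80/Cd86 in macrophages (-0.74, adjusted p = 0.0481 by exact permutation) and in Ctla4/Cd28 in T/NK cells (-0.96, from -0.48 with all strains, adjusted p = 0.0175) passed, as did Icos/Cd28 in T/NK cells without CC079 (0.72, adjusted p = 0.0262).

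In migratory dendritic-like cluster 11, 0 of 3 ligands passed in isotype tumors, where 0.0723% of 2768 genes did, in aPD1 tumors (0.108%), or for either effect of aPD1 or their difference (0%, 0% and 0%). Cd80 ran from 195.1 to 363.6 CPM in 10 responder aPD1 tumors (median 307.2) and from 167.7 to 558.1 in 9 non-responder ones (median 339), and Cd86 medians were 559.8 and 538.9 CPM. Icosl had medians of 58.2 and 72.83 CPM and a log2 difference of -0.55 ± 0.29 (SE, adjusted p = 0.565 in edgeR's test). The ranges of all 3 ligands overlapped between classes in cluster 11.

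**Figure D5:**
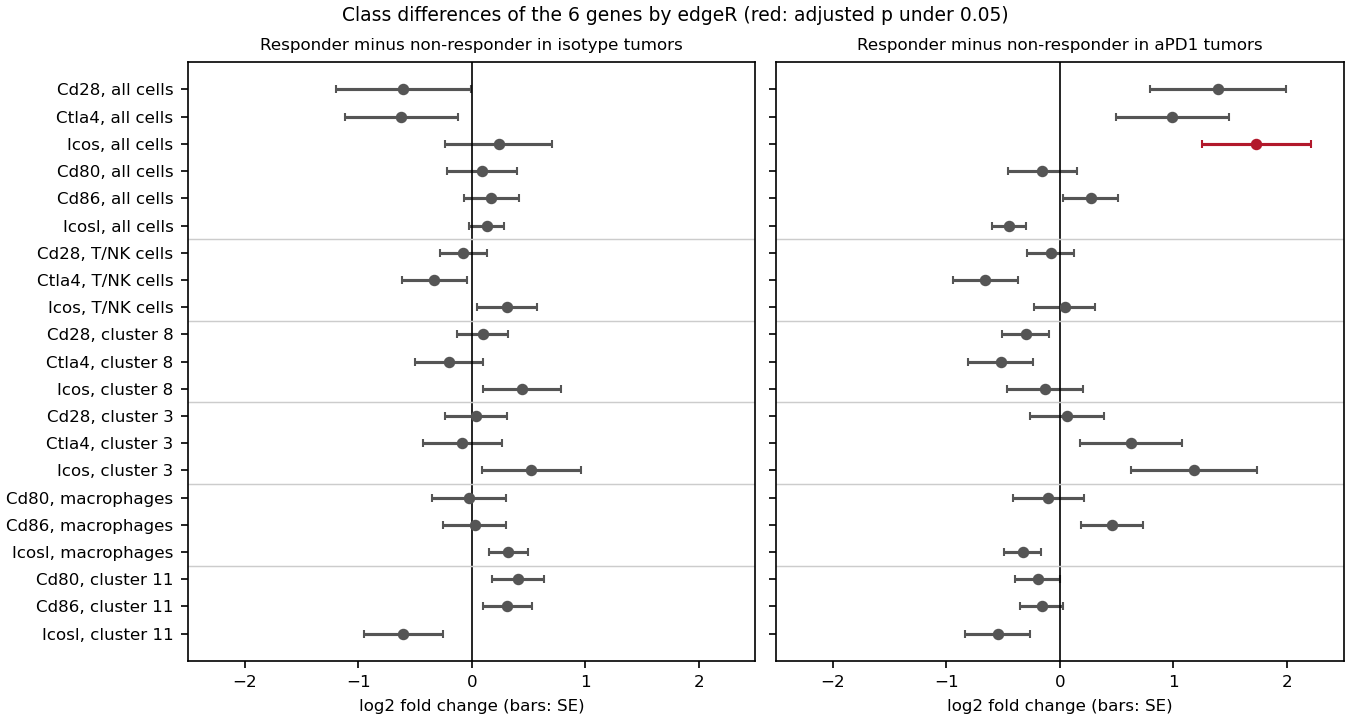
Log2 difference (x axis, points, with SE bars) between responder and non-responder strains in isotype tumors (left) and aPD1 tumors (right) for each gene in all cells and in the cells that carry it, from edgeR. Only Icos over all cells of aPD1 tumors (1.73, red) has an adjusted p under 0.05.

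Single clusters were compared as well, so that the shares of clusters within T/NK cells or macrophages could not enter, though the makeup inside a cluster still could. A cluster was used where each group had at least 6 tumors with at least 10 such cells. Of the T/NK clusters only 7 and 8 met this. Of 84 comparisons between classes over 14 clusters, none passed, and the smallest adjusted p was 0.45. An unadjusted p under 0.05 was found in 7 of them. Cd86 in aPD1 tumors was 182.4 against 128.7 CPM in macrophage cluster 5 (responder against non-responder mean, exact permutation p = 0.00655), 353.5 against 236.4 CPM in cluster 9 (exact permutation p = 0.0221) and 242.7 against 156.6 CPM in cluster 26 (exact permutation p = 0.0324). Icosl was 17.34 against 27.58 CPM in cluster 17 of aPD1 tumors (exact permutation p = 0.0269) and 25.77 against 16.44 CPM in cluster 26 of isotype tumors (exact permutation p = 0.0227). Ctla4 in aPD1 tumors was 178.1 against 341.9 CPM in cluster 7 (exact permutation p = 0.0287) and 820.8 against 1226 CPM in cluster 8 (exact permutation p = 0.0412).

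The signalling genes around the receptors were described with a list of 36 genes, from the kinases Lck, Fyn and Zap70 through the adaptors Lat, Lcp2 and Grb2 to PI3K, PKC-theta and NF-kB components and the regulators of CTLA-4 trafficking Lrba, Trat1 and Ap2m1. In T/NK cells all 36 were tested, and 1 passed: Trat1, an adaptor of the T cell receptor complex, was lower in responder isotype tumors (log2 difference -1.47 ± 0.36 SE, adjusted p = 0.0481 in edgeR's test), where 0.429% of all 7219 genes passed. The call was lost with pool as a block (adjusted p = 0.0654), and its adjusted p reached 0.48 over the alternatives. In the other 4 comparisons 0 of 36 passed, where at most 0.346% of all genes did. The median log2 difference of the list was -0.05 in aPD1 tumors, beside -0.01 over all genes tested, and 6 of 36 had an unadjusted p under 0.05, as did 724 of all 7219 genes. In cluster 8 26 of the 36 were tested and 0 passed, where 0.0664% of all genes did in isotype and in aPD1 tumors, with a median of -0.11 in aPD1 tumors beside -0.00387 over all genes, and 9 of 26 had an unadjusted p under 0.05, as did 411 of all 3012 genes. Over all cells of aPD1 tumors 1 of 36 passed, a share near the 2.34% of all genes: it was Lat, an adaptor that couples the T cell receptor to its downstream enzymes (1.73 ± 0.46 SE, adjusted p = 0.035), the gene whose pattern over clusters was closest to that of Icos.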

How the data were processed

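Single-cell libraries (10x Genomics 5′ chemistry) were aligned by the authors to GRCm38 with Cell Ranger and handled in Seurat 5.0.1 (versions per the labels). Hashtags were assigned to specimens, and cells above 15% mitochondrial or 45% ribosomal expression were removed. The deposited table holds raw UMI counts (93126 cells, 150064855 entries, all whole). Library, strain, treatment, hashtag and cluster number per cell were deposited too. A table of hashtag sequences was left aside. Names of clusters were assigned here.

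Counts were summed per tumor (1 specimen of 1 pool), which was the replicate and never the cell. One animal identifier stands on 2 CC080 tumors, which were kept. For each of 6 sums of cells, edgeR 4.0.16 (R 4.3.3, TMM, filterByExpr, quasi-likelihood) was fitted over all genes on 38 tumors with at least 10 cells in 4 groups of class and treatment, with Benjamini-Hochberg adjustment and a threshold of 0.05. Pool did not enter this fit. DESeq2 1.42.0 and pool as a block were alternatives. Ratios (1 count added) and single clusters (log2(CPM + 10)) were compared by exact permutation of tumors, two-sided. Where both groups had 10 tumors, 100000 random permutations were drawn instead. Shares of cells were computed after thinning to 1000 UMIs. Scripts were tested on simulated data.

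All 6 genes are named throughout. Of the 36 signalling genes up to 3 past the threshold in a comparison were named, by size of change, and for likeness the 3 closest genes. The 6 genes, the lists and the markers were chosen with earlier results of these data known. Counts limit precision for receptors in tumors with few T/NK cells. Sequences and positions are from the GRCm38 reference with GENCODE vM21 annotation.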

Additional observations from a re-analysis of the deposited data

Results flagged for a closer look

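Of 112 groups of tumors checked, 13 flags for a tumor far from the others were raised by Dixon's ratio. The cut is set for about 1 in 20 groups of independent, normally distributed values. These groups share tumors and genes, so the count cannot be set against that rate. The values are given without explanation.

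The CC036 isotype tumor of pool 8 stood apart from the other non-responder isotype tumors in several measures. Its Cd28 level over all cells was 159.5 CPM, against 6.303 to 57.69 in the other non-responder isotype tumors, and T/NK cells made up 45.74% of its cells. Its macrophages (323 cells) had 686.5 CPM of Cd86 against 152.3 to 309 in the others. Other tumors of pool 8 read high too, with 712.1 (B6 aPD1), 718.6 (B6 isotype) and 466.8 CPM (CC036 aPD1). Cd28 in T/NK cells was 379.5 CPM in this tumor and 319.7, 351.9 and 345 in those tumors. In the 32 cluster 8 cells of the CC036 isotype tumor the log2 ratio of Ctla4 to Cd28 was 0.75 against 1.93 to 2.86 in the others, and that of Icos to Cd28 was -0.51 against 1.26 to 2.48. These ratios were -0.07 and -0.15 in B6 aPD1, 1.43 and 1.54 in B6 isotype and 2.17 and 1.81 in CC036 aPD1 tumors of pool 8.

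The CC075 aPD1 tumor of pool 9, with 35.64% T/NK cells, had the highest level of each receptor over all cells among responder aPD1 tumors. Cd28 read 77.15 CPM (others at most 35.16), Ctla4 131.3 CPM (at most 68.27) and Icos 136.5 CPM (at most 75.67). It is also the tumor whose absence moved the class difference in Icos most, to 1.47 on the log2 scale (adjusted p = 0.0989 in edgeR's test).

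The CC075 isotype tumor of pool 9 had 31.36 CPM of Icosl in macrophages against 14.67 to 21.8 in the other responder isotype tumors. In its 16 cluster 8 cells the log2 ratio of Ctla4 to Cd28 was -0.62 against 1.26 to 2.86, and that of Icos to Cd28 was 0.20 against 1.63 to 2.75.

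In cluster 11, Icosl read 160.9 CPM in the CC036 aPD1 tumor of pool 9, against 55.93 to 106.7 in the other non-responder aPD1 tumors, and 158.3 CPM in the CC001 aPD1 tumor of pool 4, against 17.73 to 81.73 in the other responder aPD1 tumors. The log2 ratio of Cd80 to Cd86 in cluster 11 was 0.67 in the CC001 isotype tumor of pool 1, against -1.04 to -0.64 in the others.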

How the results depend on the processing

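Of 3148 alternative values of 212 tested results, 2760 kept the call and the sign, 354 had another sign with no call either way, 24 lost a call and 10 gained one, and none reversed a call. The class difference in Icos over all cells of aPD1 tumors (1.73, adjusted p = 0.0439 in edgeR's test) lost its call when scaled by total UMIs alone (1.69, 0.0505), with no filter on low counts (1.70, 0.0602), without CC002 (1.74, 0.0591), CC075 (1.37, 0.204), CC036 (1.88, 0.0514), CC079 (1.58, 0.219) or CC080 (1.75, 0.104), within pools 1 to 5 (1.67, 0.23) or 8 to 12 (1.77, 0.465), and summed per strain (1.76, 0.346). It kept it with DESeq2 (1.72, 0.00777), with pool as a block (1.79, 0.0217), without CC001 (2.06) and without the tumors of the shared animal (1.82). Leaving out each tumor, an alternative chosen after seeing the data, gave 1.47 to 1.87 and 0 to 1 genes called, and the 14 tumors whose absence ended the call were CC079 of pools 1, 2 and 5, CC001 of 2 and 4, CC002 of 3 and 5, CC080 of 3 and 11, CC036 of 8 and 9, and CC075 of 9, 10 and 11, all given aPD1. Accordingly 0 of the 6 genes passed under total UMI scaling, no filter, either set of pools, sums per strain, or without CC002, CC075, CC079 or CC080, and 2 with pool as a block, where Icosl also passed (-0.47, adjusted p = 0.0489). Without CC036 Icosl passed (-0.60, 0.0359) in place of Icos. In cluster 3, 1 of 3 receptors passed with no filter (Icos, 1.41, 0.0445). In macrophages, 1 of 3 ligands passed with pool as a block (Cd86, 0.53, 0.0406) and 2 without CC036 (Cd86, 0.88, 0.0353, and Icosl, -0.53, 0.044). Of the 35 ratio and share comparisons 3 passed without CC036 (Ctla4/Cd28 in T/NK cells, -0.96, Cd80/Cd86 in macrophages, -0.74, and the cluster 8 share, -26.9 percentage points) and 1 without CC079 (Icos/Cd28 in T/NK cells, 0.72), while 0 of 14 class differences passed by exact permutation when paired within pool (3 at an unadjusted p under 0.05), an alternative chosen after seeing the data. Trat1 had an adjusted p from 0.0141 to 0.48 over its alternatives. The cause of these changes was not tested. Cluster 3 is limited by cell number in non-responder aPD1 tumors, of which 5 had at least 10 such cells.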
